A study of Mus musculus with 12 samples.

Results

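Retinal ganglion cells are the output neurons of the retina, and their axons form the optic nerve. Here they were taken from single-cell profiles of mouse retina by the genes each cell expressed: a cell counted as a ganglion cell if it had at least 200 detected genes, a value above 0 for at least 3 of the 8 genes Nefl, Nefm, Sncg, Thy1, Rbpms, Slc17a6, Pou4f1 and Pou4f2, at least 1 of the last 4 among them, and no RNA of the horizontal cell gene Lhx1. This rule found 292 cells among the 24772 cells with at least 200 genes, of 25472 cells in all. Amacrine cells, the inhibitory interneurons that lie beside ganglion cells and share much of their gene expression, were taken by a like rule (1374 cells) as the nearest cell type to set them against.

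Ganglion cells collect signals from bipolar and amacrine cells, turn them into trains of action potentials and release glutamate in the brain. They need large amounts of neurofilament, tubulin and motor proteins to build and supply a long axon, and sodium channels to carry its spikes. In the growing retina they also send signals to vessels, and in oxygen-induced retinopathy, where vessels first regress in high oxygen and then regrow abnormally, ganglion cells lie in the tissue that becomes short of oxygen.

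The cells came from pups of the C57B6 strain and were profiled by Drop-seq, which counts unique molecular identifiers (UMIs) from the 3′ ends of messenger RNA. Pups of the oxygen-induced retinopathy (OIR) groups were kept with a foster mother, breathed 75% oxygen from postnatal day 7 to day 12 and then room air. Pups of the NORM groups stayed in room air with their own mother, so the kind of mother and the oxygen cannot be told apart. Retinas were taken at postnatal day 17 (P17) or 14 (P14), after rod depletion or whole. At P17 OIR had 2 libraries of whole retina and 1 after rod depletion, and at P14 it had 3 and 2; NORM had 1 library for each age and fraction. The labels do not say which libraries came from separate animals or how many animals were pooled, so the spread behind each p-value is that between libraries and may be technical.

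The 12 libraries held 932 to 3415 cells and 3 to 56 ganglion cells each. The P17 NORM whole-retina library had 3 ganglion cells with 2286 UMIs in all and was left out of comparisons of gene levels, which therefore used 289 ganglion cells of 11 libraries (8 OIR, 3 NORM), with 23974 to 203090 UMIs of ganglion cells per library. The median ganglion cell had 2767.5 UMIs, against 2562.5 in amacrine cells and 1044 in all other cells. Here and below, other cells are all cells with at least 200 genes outside the ganglion cell rule, amacrine cells included. Scrublet called 1 ganglion cell a doublet, and 14 barcodes occurred in more than 1 library, 1 of them on a ganglion cell. The P14 NORM whole-retina library stood apart: the heat shock gene Hspa8 was at 0.522 UMIs per 10000 in its ganglion cells, against 10.5 to 21.0 in the other 10 libraries, and at 0.548 in its amacrine cells, where the next lowest library had 8.72. Columns of this library carry another replicate number than its label, so its match is less sure than the others.

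Levels are given as UMIs per 10000 UMIs of a cell, averaged over the ganglion cells of a library. Reads were counted from 3′ ends, so 1 UMI stands for 1 captured RNA whatever its length. Losses that differ between genes were not measured, so levels of different genes can be set side by side only roughly. Gapdh, for one, had a median of only 0.189 over the libraries in ganglion cells and 0.504 in all other cells. The ribosomal protein gene Rpl24 had no UMI in ganglion cells.

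The 8 genes of the rule describe the choice of cells and are no finding. Nefl and Nefm encode neurofilament subunits, Sncg the small axonal protein gamma-synuclein, Thy1 a surface protein, Rbpms an RNA-binding protein, Slc17a6 the vesicular glutamate transporter VGLUT2, and Pou4f1 and Pou4f2 the transcription factors Brn3a and Brn3b. Nefl was detected in 96.9% of ganglion cells, Nefm in 90.8%, Thy1 in 84.6%, Sncg in 78.8%, Slc17a6 in 78.1%, Rbpms in 65.8%, Pou4f1 in 53.4% and Pou4f2 in 20.5%. Of the 292 cells, 32 carried 3 of the 8 genes, 37 carried 4, 49 carried 5, 69 carried 6, 82 carried 7 and 23 carried all 8. In mouse build GRCm38, Nefl lies on chromosome 14 at 68083863 to 68089095 on the plus strand, within the annotated span of Nefm on the minus strand (68082590 to 68124846), and Slc17a6 lies on chromosome 7 at 51622006 to 51671119.

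Nefl had 50.2, 55.7 and 89.0 UMIs per 10000 (lowest, median and highest) in the 8 OIR libraries, and 52.2 and 76.5 in the P14 NORM libraries (rod-depleted, then whole) and 37.0 in the P17 NORM rod-depleted library. The groups overlapped, and every library was far above its other cells, which averaged 0.99 over the 11 libraries, and its amacrine cells, which averaged 1.39. Slc17a6 averaged 9.46 ± 3.49 in OIR ganglion cells and 8.51 ± 3.47 in NORM ganglion cells (SD, n = 8 and 3). Pou4f1 averaged 4.93 ± 2.36 in OIR and 3.87 ± 1.47 in NORM, and Pou4f2 1.26 ± 1.12 in OIR and 1.70 ± 0.26 in NORM. For none of the 8 genes did all OIR libraries lie on the same side of all NORM libraries.

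At the edge of the rule, the 32 cells with exactly 3 rule genes were shallow, with a median of 1129.5 UMIs, and had 10.9 UMIs per 10000 of Nefl, against 61.9 over all ganglion cells. Just outside it, 117 cells with 2 rule genes had 3.05 of Nefl. A further 112 cells had 3 or more rule genes but none of Rbpms, Slc17a6, Pou4f1 and Pou4f2, with 27.7 of Nefl. The amacrine gene Tfap2b was at 0.164 over all ganglion cells, against 4.16 in these 112 cells and 17.1 in the 10 cells kept out by Lhx1.

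A few cells inside the rule carried the RNA of vessel cells. At least 4 of 10 pericyte markers were detected in 6 ganglion cells of 4 libraries, 5 of them OIR cells. All 6 had Rbpms as their only gene of the last 4, no UMI of Slc17a6 or of the ganglion cell gene Nrn1, 2.29 UMIs per 10000 of Nefl and 164 of the pericyte gene Rgs5, and 3632 to 7542 UMIs each. Rbpms is known from smooth muscle and pericytes as well as from ganglion cells. With endothelial markers counted too, 8 cells carried vessel RNA; the other 284 cells had 63.4 of Nefl, 6.95 of Nrn1 and 0.727 of Rgs5. These cells belong to the rule and stay in the values here, and the counts of calls without the 8 cells are given with the comparisons.

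Ganglion cells also held RNA of other retinal cells. At least 4 rod markers were detected in 82 ganglion cells (28.1%), against 40.4% of amacrine cells. At least 4 Müller glia markers were found in 65 ganglion cells (22.3%), against 18.4% of amacrine cells, and at least 4 bipolar markers in 42 (14.4%), against 8.95%. In droplet data such RNA can be free RNA of the suspension or a second cell, and its part in the results was not tested.

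Outside the rule, the genes that led ganglion cells over all other cells included genes of axons, calcium handling and noncoding RNAs. Since the cells were chosen by their RNA, these values are a description. The calcium buffer calretinin (Calb2) led, with a median log2 difference of 4.62 over the libraries, followed by stathmin-2 (Stmn2), a tubulin-binding protein of growing axons, with 3.89, and neuritin (Nrn1), a neurite growth protein, with 3.80. Calb2 averaged 43.3 UMIs per 10000 in ganglion cells, against 5.91 in amacrine cells and 1.38 in other cells. Nrn1 averaged 7.28 in ganglion cells, against 0.0521 in amacrine cells and 0.0846 in other cells, so it separated them from amacrine cells better than Calb2 did. Below them stood the kinase gene Cdk14, the secreted protein gene Nell2, the noncoding RNAs Snhg11, Miat and Meg3, the sodium pump subunit Atp1b1, the G protein regulator Rgs4, the growth cone protein Gap43 with 2.93, the sodium pump regulator Fxyd7, the calcium sensor Vsnl1, the tubulin-binding Tppp3, the ubiquitin hydrolase Uchl1, Ahnak2, Srgap1, the neuronal tubulin Tubb3, the nicotinic receptor subunit Chrna6 and Tusc5. These 20 genes lead those outside the rule among 406 genes, rule genes counted. All 406 had a mean of at least 1 UMI per 10000 and were higher in ganglion cells than in other cells in all 11 libraries. Meg3 was the most abundant RNA of ganglion cells.

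**Figure D1:**
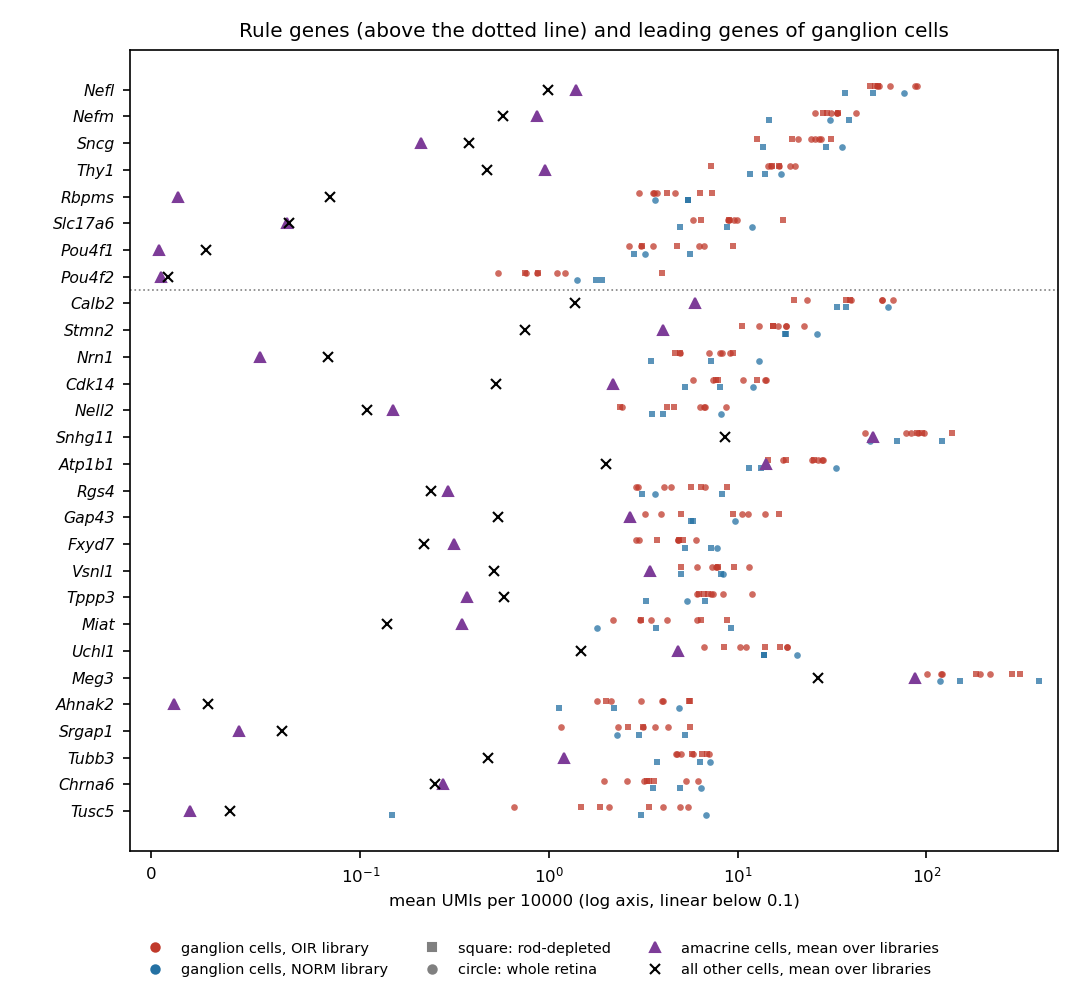
Mean UMIs per 10000 (log axis, linear below 0.1) of the 8 rule genes and the 20 leading genes in ganglion cells of each OIR (red) and NORM (blue) library, with the mean over libraries of amacrine cells (triangles) and of all other cells (crosses). Nefl, a gene of the rule that chose these cells, lies between 37.0 and 89.0 in ganglion cells of every library against 0.99 in other cells. Amacrine cells come within reach of ganglion cells for Snhg11, Atp1b1 and Meg3.

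A list of 40 other known ganglion cell genes, none of them in the rule, is given as a description too. Of its 32 members with at least 0.5 UMIs per 10000 in ganglion cells, 27 were higher than in other cells in all 11 libraries and 22 higher than in amacrine cells. The share of all genes at this level for which that holds was not counted. The summed level of all 40 was 238 in ganglion cells, 71.6 in amacrine cells and 48.3 in other cells. Rbpms2, a relative of Rbpms, averaged 3.17, against 0.0150 in amacrine cells, and was detected in 145 cells, of which 102 also had Rbpms. The transcription factor Ebf1 averaged 3.53, against 0.0736 in amacrine cells, and Irx4, another transcription factor, was found in 46 ganglion cells and in 0 of 1374 amacrine cells, which allows a share of up to 0.218%. Isl1, which bipolar cells also use, was an exception with 2.59 in ganglion cells and 11.7 in other cells.

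The machinery of spikes, transmitter release and axons differed in how far it set ganglion cells apart. Voltage-gated sodium channel genes summed to 17.8 in ganglion cells, 7.00 in amacrine cells and 2.23 in other cells, and all 7 expressed members were higher than in other cells in every library. Scn2a1 led with 4.94, against 1.30 in amacrine cells, followed by Scn1a with 4.03, against 1.83. Of 30 expressed axon transport and cytoskeleton genes, 23 were higher than in other cells in every library and 11 higher than in amacrine cells. The share of all expressed genes for which this holds was not counted, so the counts of these lists are description only. Tuba1a averaged 30.5 in ganglion cells, against 17.5 in amacrine cells, and the kinesin Kif5a 6.43, against 1.61, whereas its relative Kif5c had 5.72 in ganglion cells and 6.01 in amacrine cells. Among 15 genes of glutamate release 11 were above other cells in every library but only 3 above amacrine cells, 1 of which is the rule gene Slc17a6. Snap25, a vesicle fusion protein, averaged 30.6 in ganglion cells and 19.8 in amacrine cells, and the calcium sensor Syt1 24.0 in ganglion cells and 31.9 in amacrine cells.

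Genes of the response to low oxygen were not a mark of ganglion cells. The 38 listed HIF targets summed to 56.0 in ganglion cells, 72.3 in amacrine cells and 91.4 in other cells, and none of the 15 expressed at 0.5 or more was higher than in other cells in every library. Vegfa, the main vessel growth factor, averaged 1.21 in ganglion cells, 1.71 in amacrine cells and 3.53 in other cells. The 24 listed glycolysis genes summed to 100 in ganglion cells, 107 in amacrine cells and 120 in other cells. The neuronal enolase Eno2 averaged 12.8 in ganglion cells, 4.70 in amacrine cells and 3.30 in other cells.

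Ganglion cells come in many types, and a few type markers were seen in a small number of cells. Opn4, the light pigment melanopsin of intrinsically photosensitive ganglion cells, was detected in 16 of 292 cells (5.48%, 95% exact binomial interval 3.16 to 8.75%), against 0.437% of amacrine cells. Eomes, a transcription factor of these cells, was detected in 20 cells, 10 of which also had Opn4. The 6 cells with Tbr1, which marks other types, had neither Opn4 nor Eomes, but so few cells cannot show whether these markers exclude each other. Eomes was in 6.85% of ganglion cells and 2.33% of amacrine cells, and Tbr1 in 2.05% and 1.38%. Foxp2, which marks the F-RGC types, was found in 20 cells and in 0 amacrine cells, and 16 of the 20 also had Pou4f1. Spp1, used as a marker of alpha ganglion cells, was found in 4 cells, all with Opn4. Tusc5 was found in 105 cells, 79 of them with Pou4f1. Cartpt, a marker of direction-selective ganglion cells, was detected in 98 ganglion cells (33.6%) and 16.5% of amacrine cells, but averaged 6.30 UMIs per 10000 over ganglion cells and 15.2 over amacrine cells. Intervals cover counting error only, and a cell without a UMI may still express the gene.

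The share of ganglion cells did not differ detectably between OIR and NORM libraries. Because a shallow cell has fewer chances to show 3 rule genes, each cell was first thinned to 500 UMIs, which left 20676 cells, of which 138 met the rule. Ganglion cells then made up 0.355 to 1.43% of cells in the 8 OIR libraries, with a mean of 0.753 ± 0.392%, and 0.390 to 0.960% in the 4 NORM libraries, with a mean of 0.675 ± 0.281% (SD; exact permutation test within age and fraction, two-sided p = 0.764, where 0.0139 is the smallest p that 72 arrangements allow). Without thinning the means were 1.35 ± 0.729% in OIR and 0.824 ± 0.512% in NORM libraries (exact permutation p = 0.278). The size of the difference moved with the depth. Thinned to 300 UMIs the means were 0.444% in OIR and 0.231% in NORM libraries (exact permutation p = 0.25). Thinned to 1000 UMIs they were 1.98% in OIR and 0.918% in NORM libraries (exact permutation p = 0.222). Of the 4 NORM values, that of the P17 whole-retina library rests on few cells. The rule was met there by 2 of 230 cells at 500 UMIs and 0 of 475 at 300 UMIs. At 1000 UMIs it was met by 0 of 58 cells (95% exact interval 0 to 6.16%). The highest share, 2.89% unthinned (95% exact interval 2.19 to 3.73%), came from the P17 OIR rod-depleted library. The permutation test used the mean of the differences within each age and fraction, which was 0.149 percentage points after thinning to 500 UMIs. Leaving out the P17 OIR rod-depleted library turned this difference to -0.146 percentage points. So did leaving out the P17 NORM rod-depleted library, the only one it is set against. On the same sequencing run, the P14 OIR rod-depleted replicate 2 had 0.906% and its NORM partner 0.960%, and the P14 OIR whole-retina replicate 1 had 0.605% and its NORM partner 0.481%. A share says nothing of the number of ganglion cells in an eye.

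Rod depletion, which removes the most numerous cells, left the share of ganglion cells within the spread of the libraries: 0.807 ± 0.446% in rod-depleted and 0.670 ± 0.283% in whole retina (n = 5 and 7, exact permutation p = 0.458, smallest possible 0.00833). The mean of the differences within each age and oxygen group was 0.204 percentage points. Without the P17 OIR rod-depleted library it turned to -0.0742 percentage points (exact permutation p = 0.725).

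**Figure D2:**
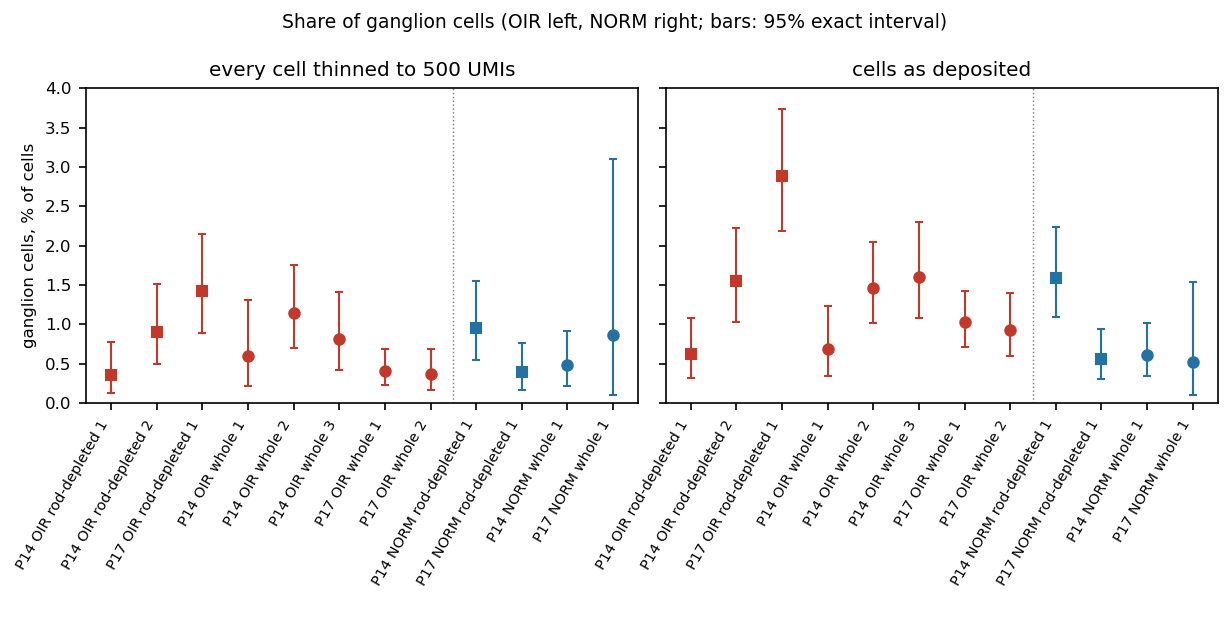
Share of ganglion cells among the cells of each library (%), OIR libraries in red on the left and NORM in blue on the right of each panel, squares for rod-depleted and circles for whole retina, with 95% exact binomial intervals. After thinning to 500 UMIs (left panel) OIR libraries lie between 0.355 and 1.43% and NORM libraries between 0.390 and 0.960%; as deposited (right panel) the P17 OIR rod-depleted library stands highest at 2.89%.

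The central comparison asked which genes of ganglion cells differ between OIR and NORM retina. Limma was fitted to log2(value + 0.5) of 4592 genes with oxygen, age and fraction as terms, and differences below are on this scale, which understates the change of low genes. No gene passed an adjusted p of 0.05: 0 of 4592 genes were called (0.0%), the lowest adjusted p was 0.955, and 230 genes (5.01%) had an unadjusted p under 0.05. The median gene had a 95% interval of 0.81 to either side of its log2 difference, so for a typical gene a difference of up to about that size cannot be told from 0 even before adjustment. At P14 alone 0 genes were called (0.0%) and 157 (3.42%) had an unadjusted p under 0.05. No stated sequencing run held both OIR and NORM libraries of P17, so oxygen and run cannot be told apart at that age. At P17, where NORM rests on 1 library of 14 ganglion cells, 0 genes were called (0.0%) and 453 (9.86%) had an unadjusted p under 0.05. Tests of the difference between the oxygen effects at P17 and P14 called 0 genes (0.0%), with 342 at an unadjusted p under 0.05. Tests of the oxygen effect in ganglion cells minus that in amacrine cells of the same libraries also called 0 genes (0.0%), with 263 at an unadjusted p under 0.05. Each of these 5 comparisons also called 0 genes by limma without the 8 cells with vessel RNA.

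The HIF targets are the genes a cell switches on when oxygen is short, and none of them was called in ganglion cells of OIR retina. Of 15 tested members 0 passed, 10 had a positive and 5 a negative difference, and their median was 0.07 where all genes had 0.02; by age it was -0.21 at P17 and 0.08 at P14. Ldha, which makes lactate, had 3.60, 7.00 and 15.1 UMIs per 10000 (lowest, median and highest) in OIR libraries, against 5.06 and 3.91 in the P14 NORM libraries (rod-depleted, then whole) and 7.92 in the P17 NORM rod-depleted library. The groups overlapped, with a log2 difference of 0.25 (95% interval -0.42 to 0.92). Aldoa, a glycolytic enzyme and the most abundant member, averaged 15.6 ± 7.27 in OIR and 17.4 ± 9.45 in NORM (SD, n = 8 and 3), with a difference of -0.48 (-1.08 to 0.12). Bnip3, which directs the removal of mitochondria and was picked after its values were seen, averaged 3.28 ± 1.35 in OIR and 2.13 ± 0.695 in NORM, with a difference of 0.49 (-0.26 to 1.23). Vegfa had 0.476, 1.04 and 2.4 in OIR libraries, and 1.13, 0.263 and 1.97 in the same 3 NORM libraries, with a difference of 0.22 (-0.60 to 1.05). The HIF targets Adm, Angptl4, Ndufa4l2, Hk2 and Pdk1 were too low to test in these cells, and Car9 had no UMI.

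Of 18 tested glycolysis genes 0 were called and 9 had a positive difference, with a median of -0.01 (-0.32 at P17 and 0.04 at P14). Eno2 averaged 12.6 ± 1.72 in OIR and 13.2 ± 0.345 in NORM ganglion cells. Pkm, the last enzyme of glycolysis, averaged 11.6 ± 3.88 in OIR and 12.1 ± 8.81 in NORM, a spread set by the P17 NORM rod-depleted library with 22.0. Within the runs that held both conditions, Ldha differed by -0.44 in the rod-depleted pair and by 1.82 in the whole-retina pair, and Vegfa by -0.58 and 1.79, so the 2 pairs had opposite signs.

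Genes that define the neuron were likewise not called. Of the 32 tested members of the list of other ganglion cell genes 0 were called and 11 had a positive difference, with a median of -0.12. Stmn2 had 10.6, 15.8 and 22.5 in OIR libraries, and 17.9 and 26.3 in the P14 NORM libraries (rod-depleted, then whole) and 18.0 in the P17 NORM rod-depleted library. Its OIR median lay below every NORM library, but the groups overlapped and the difference of -0.45 ± 0.25 (SE) did not pass (adjusted p = 0.955 by limma). Scn2a1 averaged 4.63 ± 1.62 in OIR and 5.74 ± 1.0 in NORM, Map1b, a microtubule-associated protein, 23.4 ± 8.68 in OIR and 28.7 ± 1.61 in NORM, and Snap25 29.5 ± 5.68 in OIR and 33.6 ± 9.98 in NORM. Of 7 tested sodium channel genes, 15 of glutamate release and 30 of axon transport 0 were called, with medians of 0.06, -0.13 and -0.11. Irx4, singled out after its values were seen, was at 0.326 to 1.46 in OIR libraries and at 0.308, 0.190 and 0 in NORM libraries, and its difference of 0.99 ± 0.39 did not pass (adjusted p = 0.955 by limma).

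**Figure D3:**
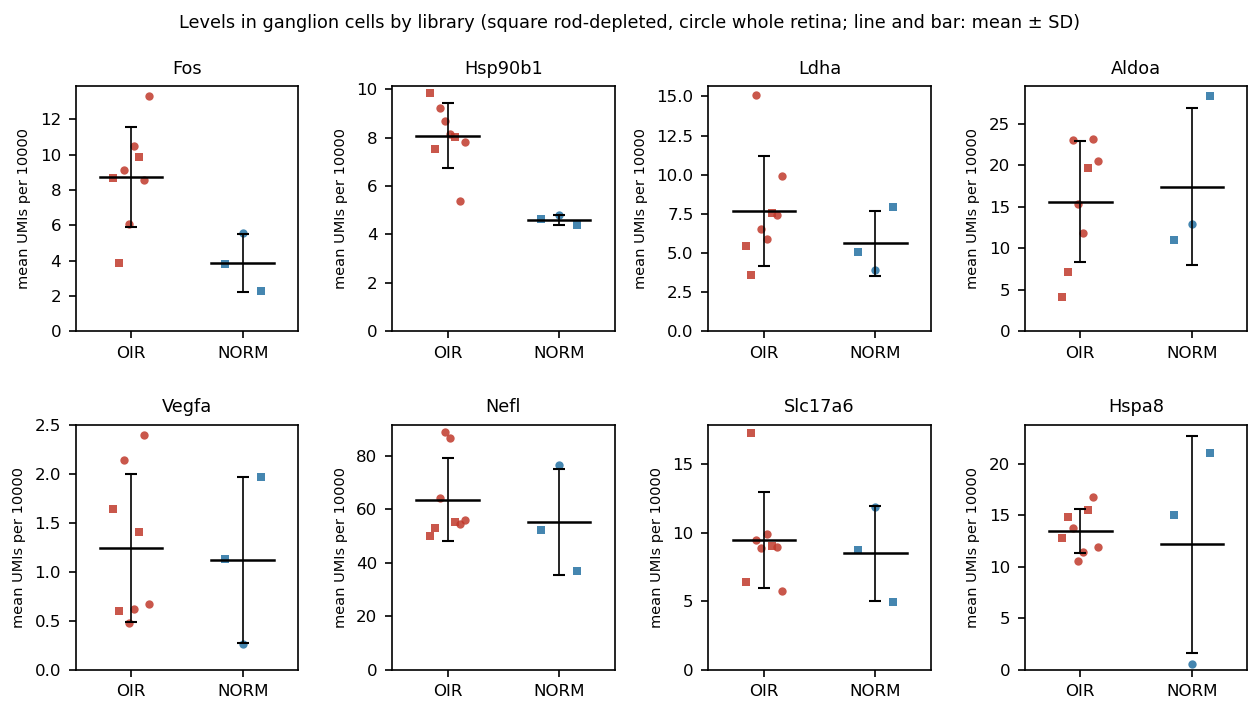
Mean UMIs per 10000 in ganglion cells of each OIR (left, red) and NORM (right, blue) library for 8 genes, with squares for rod-depleted, circles for whole retina, and the mean ± SD in black. Hsp90b1 is the one shown here whose 8 OIR libraries all lie above the 3 NORM libraries, 5.38 or more against 4.81 or less, and Hspa8 is near 0 in the P14 NORM whole-retina library alone.

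Immediate early genes, which neurons switch on soon after activity or stress, mostly had positive differences, but none passed. Of 13 tested members 0 were called, 11 had a positive difference, and the median was 0.52, where all genes had 0.02. By age the median was 1.58 at P17 (11 positive), where all genes had 0.10, and -0.03 at P14 (6 positive), where all genes had -0.02. At P17 NORM rests on 1 library of 14 ganglion cells, and oxygen and run cannot be told apart. Fos had 3.90, 8.92 and 13.3 UMIs per 10000 in OIR libraries, against 3.81 and 5.57 in the P14 NORM libraries (rod-depleted, then whole) and 2.29 in the P17 NORM rod-depleted library. In 7 of 8 OIR libraries Fos was above its highest NORM value. The share of all tested genes with such a pattern was not counted. The difference was 0.92 ± 0.33 (adjusted p = 0.955 by limma, unadjusted 0.00707), and the OIR and NORM libraries that shared a run differed by 0.03 (rod-depleted) and 0.67 (whole retina). Egr1 averaged 2.58 ± 1.26 in OIR and 1.43 ± 0.857 in NORM, and Jun 2.04 ± 0.953 in OIR and 2.60 ± 2.01 in NORM. In amacrine cells Fos averaged 8.71 ± 2.38 in OIR and 8.08 ± 1.63 in NORM libraries, and in all other cells 19.5 ± 9.01 in OIR and 27.4 ± 13.2 in NORM libraries, with differences smaller than the spread between libraries. The Fos difference in ganglion cells exceeded that in amacrine cells by 0.89 on the log2 scale, with an unadjusted p of 0.0416 that did not pass adjustment by limma.

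The unfolded protein and heat shock response had 12 tested members, 0 called, 10 positive and a median of 0.25. Hsp90b1, a chaperone of the endoplasmic reticulum singled out after its values were seen, had 5.38, 8.07 and 9.84 in OIR libraries, and 4.63 and 4.81 in the P14 NORM libraries (rod-depleted, then whole) and 4.38 in the P17 NORM rod-depleted library. All 8 OIR libraries lay above the NORM libraries, and both pairs of the same run had the same sign (0.65 rod-depleted, 0.88 whole retina). The share of all tested genes with such separation was not counted. The difference of 0.77 ± 0.30 did not pass over all genes (adjusted p = 0.955 by limma, unadjusted 0.0133). In amacrine cells Hsp90b1 averaged 12.5 ± 2.15 in OIR and 9.21 ± 0.916 in NORM, and in all other cells 14.3 ± 2.02 in OIR and 11.1 ± 0.604 in NORM. The abundant chaperone Hsp90ab1 averaged 28.1 ± 4.71 in OIR and 23.9 ± 8.58 in NORM, with overlapping groups. Hspa8 had a difference of 1.29 ± 0.40, but this rests on the P14 NORM whole-retina library, without which it was -0.25.

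The list of axon injury and regeneration genes, which severed ganglion cells are known to switch on, had 15 tested members, 0 called, 9 positive and a median of 0.06. Gap43 averaged 9.24 ± 4.82 in OIR and 7.02 ± 2.25 in NORM, with a difference of 0.32 (95% interval -0.32 to 0.95), and Jun is given above. Atf3, Sprr1a and Ecel1, which are known to rise after axon injury in mice, were not among the genes abundant enough to test. Of 11 tested vessel signal genes 0 were called and 4 had a positive difference, with a median of -0.15. Fgf12, an intracellular modulator of sodium channels grouped here by family, averaged 2.77 ± 1.43 in OIR and 2.41 ± 0.861 in NORM, and Fgf1 1.10 ± 0.662 in OIR and 1.93 ± 1.36 in NORM, with 3.42 in the P14 NORM whole-retina library as its highest value. The senescence list had 6 tested members, 0 called, 5 positive and a median of 0.54, with 1.28 at P17 and 0.26 at P14. Cdkn1a, the cell cycle inhibitor p21, had 0.204, 1.2 and 1.91 in OIR libraries and 0.371, 0.548 and 0.185 in the same 3 NORM libraries. In 7 of 8 OIR libraries Cdkn1a lay above all NORM libraries, and its difference of 0.82 ± 0.40 did not pass (adjusted p = 0.955 by limma). How many of all tested genes show such a pattern was not counted.

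**Figure D4:**
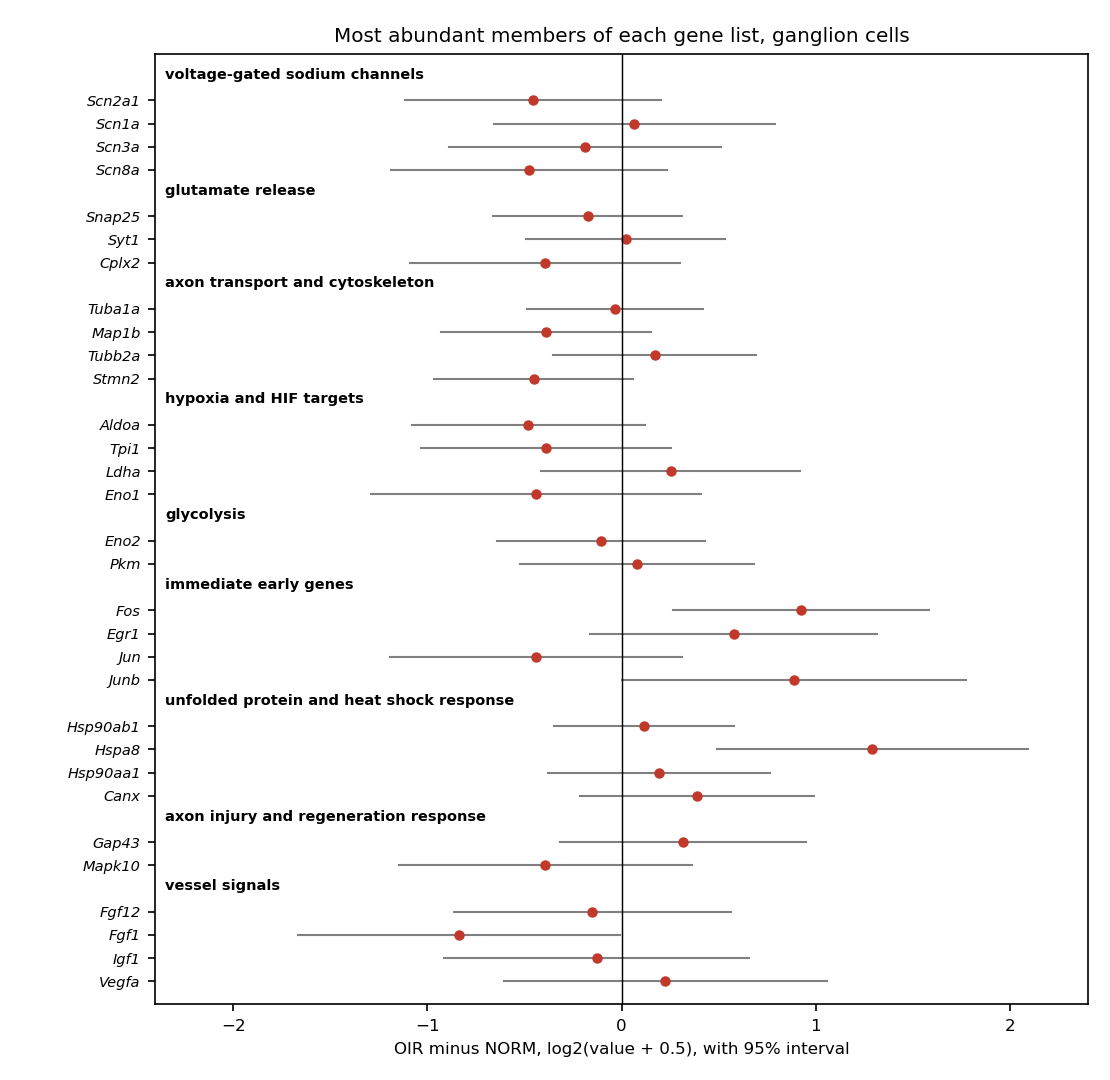
OIR minus NORM difference of log2(value + 0.5) in ganglion cells (points) with its 95% interval (lines) for up to 4 of the most abundant members of 9 gene lists, each gene shown once. Most intervals include 0; those of Fos, Hspa8 and Fgf1 do not, and none of these genes passes adjustment over 4592 genes.

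The genes with the smallest unadjusted p in this comparison are given for size only, as none passed. Htatsf1, a splicing-related factor, had 1.28, 2.0 and 3.22 in OIR libraries, and 0.728 and 0.917 in the P14 NORM libraries (rod-depleted, then whole) and 0.113 in the P17 NORM rod-depleted library. Rab14, a regulator of endosome traffic, had 3.08, 3.83 and 11.3 in OIR and 2.50, 2.61 and 0.285 in the same NORM libraries. Klhl1, a neuronal actin-binding protein, had 0.754, 1.14 and 1.82 in OIR and 0.578, 0.242 and 0 in NORM. In all 3 genes every OIR library lay above every NORM library. The genes of this paragraph were taken for their small p, and the share of all tested genes with such separation was not counted. Acsl6, which activates long-chain fatty acids, had 0.325, 0.840 and 1.29 in OIR and 2.4, 1.76 and 2.52 in NORM, so every OIR library lay below, as it did for D430041D05Rik with at most 0.606 in OIR and at least 0.940 in NORM. The potassium channel partner Kctd8 (1.35 ± 0.38), the RNA E130218I03Rik (1.11 ± 0.34) and Podxl2 (1.39 ± 0.43) had positive differences with overlapping groups. The netrin receptor gene Unc5c (-1.41 ± 0.42) was at 4.40 in the P14 NORM whole-retina library and at 0.0982 to 0.593 in the other 10. Hmgb1 (1.58 ± 0.41) and Rps3a1 (1.36) had no UMI in the ganglion cells of that same NORM library, whose other cells had Hmgb1 at 0.202 and Rps3a1 at 0.12. Hmgb1 also had no UMI in the ganglion cells of the P17 NORM rod-depleted library, whose other cells had 1.80. The remaining genes of the 20 were Prdx6, Nr2c2, Ppfia2, Trim23, Lman1, Cox17, Neurod1 and TMEM261. Beside these differences, all 11 tested rod markers had a positive difference (median 0.48; 0.99 with 11 positive at P14, -0.20 with 5 positive at P17) and the summed level of the 16 listed was 0.746 to 85.1 in OIR libraries and 1.29 to 9.03 in NORM libraries; its part in the other differences was not tested.

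Between P17 and P14, when the mouse retina matures after eye opening, 2 of 4592 genes were called (0.0436%), and 310 (6.75%) had an unadjusted p under 0.05. GM26924, a symbol with no match in the annotation used, fell at P17. It had 12.5 UMIs per 10000 in the rod-depleted OIR library, 3.98 and 3.79 in the whole-retina OIR libraries and 11.2 in the P17 NORM rod-depleted library, against 17.4, 22.0 and 45.0 (lowest, median and highest) in the 7 libraries at P14. All 4 libraries at P17 lay below all at P14, with a difference of -1.72 ± 0.30 (adjusted p = 0.00368 by limma). The same RNA averaged 3.91 at P17 and 14.1 at P14 in amacrine cells and 2.17 at P17 and 10.05 at P14 in other cells, so its difference was not particular to ganglion cells. Without either of the P17 OIR whole-retina libraries it no longer passed (adjusted p = 0.0894 and 0.323 by limma).

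Pcp2, a G protein regulator known from rod bipolar cells, rose at P17. It had 8.04, 1.10 and 5.50 in the OIR libraries (rod-depleted, then whole retina) and 11.7 in the NORM library at P17, against 0.152, 0.659 and 3.46 at P14. In 3 of 4 libraries at P17 it lay above all libraries at P14, with a difference of 1.96 ± 0.41 (adjusted p = 0.0481 by limma). This call is close to the threshold: it was lost when any 1 of 7 of the 11 libraries was left out (adjusted p of up to 0.639 by limma), namely the P17 NORM rod-depleted, P17 OIR rod-depleted, P17 OIR whole-retina replicate 2, P14 NORM whole-retina, both P14 OIR rod-depleted and P14 OIR whole-retina replicate 2 libraries. It was also lost under 7 of 15 other settings, among them summed UMIs (adjusted p = 0.215 by limma) and thinning to 500 UMIs (adjusted p = 0.848 by limma), with the same direction in all of them. Other cells held 48.9 at P17 and 34.6 at P14, amacrine cells 3.81 at P17 and 2.56 at P14, and all 6 tested bipolar markers had a positive difference in ganglion cells (median 0.79; summed level of the 15 listed 16.4 to 24.2 at P17 and 4.03 to 17.6 at P14). The part of bipolar RNA in the Pcp2 difference was not tested. Pcp2 lies on chromosome 8 at 3623371 to 3625545 of GRCm38.

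No stated sequencing run holds libraries of both ages, so age and run cannot be told apart in any of these values. The count of calls also moved with the libraries used: it was 57 with the 7 libraries of at least 20 ganglion cells, which include 1 NORM library, 56 with library weights, 3 without the 8 cells with vessel RNA (GM26924, Pcp2 and Cyr61, a matrix protein gene) and between 0 and 8 when 1 library was left out.

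Genes of energy metabolism tended to higher values at P17 without passing the test. Of 18 tested glycolysis genes 0 were called, 13 had a positive difference, 7 had an unadjusted p under 0.05, and the median was 0.53, against 0.05 over all genes. Aldoc, a brain aldolase, had 6.12, 8.18 and 9.21 in the OIR libraries and 8.72 in the NORM library at P17, against 2.07, 3.08 and 4.24 at P14. The groups did not overlap, though the share of all tested genes for which this holds was not counted. The difference of 1.24 ± 0.29 missed the threshold (adjusted p = 0.101 by limma). Aldoa had 19.7, 23.2 and 20.5 in the OIR libraries and 28.3 in the NORM library at P17, against 4.15, 11.9 and 23.04 at P14, with a difference of 1.09 ± 0.27 (adjusted p = 0.130). Tpi1 averaged 12.8 ± 4.53 at P17 and 5.54 ± 1.58 at P14, Pkm 17.0 ± 3.53 at P17 and 8.76 ± 2.87 at P14, and Ldhb 5.54 ± 0.504 at P17 and 3.17 ± 0.524 at P14 (SD, n = 4 and 7), and none of the 3 passed. Eno2, in contrast, averaged 12.6 ± 0.70 at P17 and 12.9 ± 1.84 at P14. Aldoc averaged 7.66 at P17 and 3.43 at P14 in amacrine cells and 6.20 at P17 and 3.96 at P14 in other cells. With libraries of at least 20 ganglion cells Aldoc, Aldoa and Tpi1 were among the 57 called, and so were Gap43 and Calb2 with negative differences.

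The HIF target list, which shares Aldoa, Tpi1, Pgk1, Ldha and Eno1 with glycolysis, had 15 tested members, 0 called, 14 positive and a median of 0.53. Ldha averaged 8.22 ± 1.16 at P17 and 6.51 ± 3.92 at P14. Of 36 nuclear respiratory chain genes 0 were called and 25 were positive with a median of 0.21, and Cox4i1 averaged 13.6 ± 1.71 at P17 and 8.26 ± 2.79 at P14. All 10 tested mitochondrially encoded genes had a negative difference, with a median of -0.28 and 0 called. Beside these, all 8 tested Müller glia markers had a positive difference (median 0.96; summed level of the 15 listed 21.3 to 35.4 at P17 and 6.93 to 22.0 at P14), as had 10 of 11 rod markers (median 0.68), and their part in the energy genes was not tested.

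Gap43, the growth cone protein that neurons make while axons extend, had lower values at P17 without passing the test. It had 5.02, 3.93 and 3.24 in the OIR libraries and 5.81 in the NORM library at P17, against 5.64, 10.5 and 16.5 at P14. Only the P17 NORM rod-depleted library lay above the lowest library at P14, and the difference of -1.19 ± 0.28 missed the threshold (adjusted p = 0.101 by limma). Amacrine cells had 2.10 at P17 and 3.02 at P14. Calb2 averaged 30.1 ± 10.1 at P17 and 50.8 ± 13.6 at P14, with a difference of -0.71 ± 0.20 that did not pass. Nefl, a rule gene whose level depends on how the cells were chosen, averaged 50.7 ± 9.18 at P17 and 67.4 ± 16.6 at P14. The list of other ganglion cell genes had a median of -0.10, with 10 of 32 positive and 0 called.

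**Figure D5:**
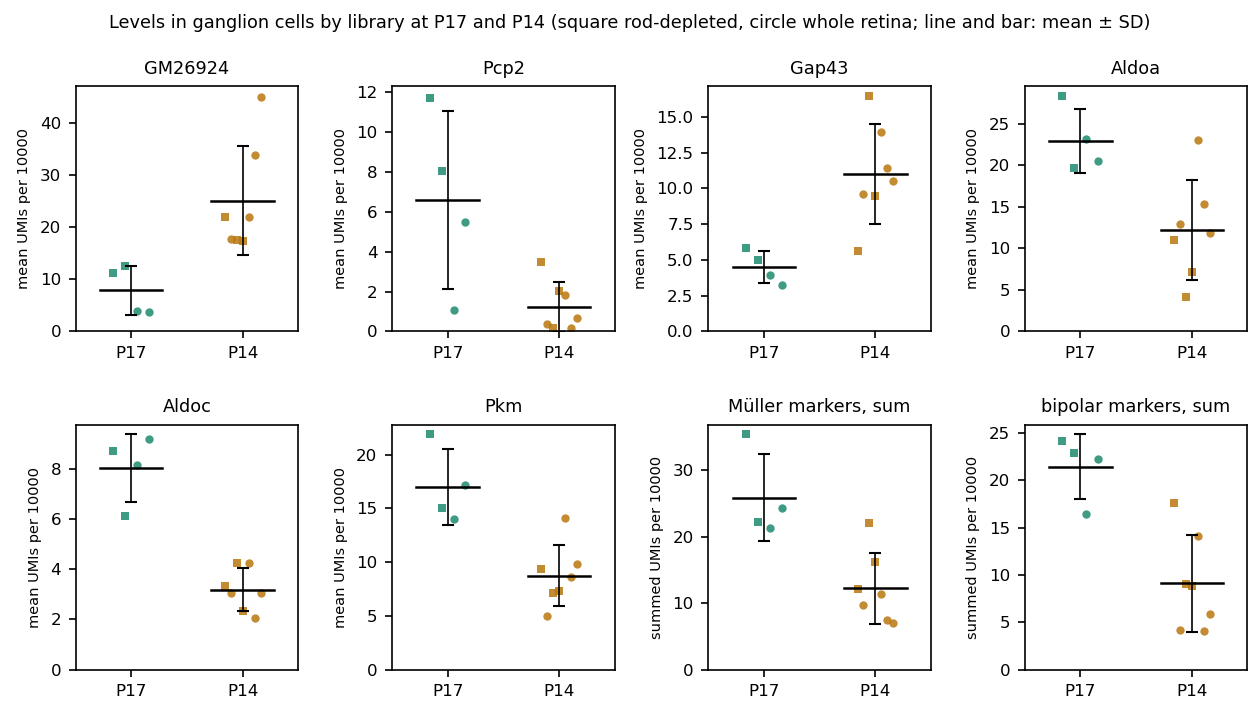
Mean UMIs per 10000 in ganglion cells of each library at P17 (left, green) and P14 (right, ochre) for 6 genes, and the summed level of Müller glia and bipolar markers in the same cells, with squares for rod-depleted, circles for whole retina, and the mean ± SD in black. GM26924 is lower at P17 in all 4 libraries, Aldoc is higher in all 4, and the marker sums of Müller glia and bipolar cells lie higher at P17 as well.

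Of the 20 genes with the smallest p between ages, the others did not pass. Cyr61 (1.71 ± 0.37, adjusted p = 0.0567 by limma) and the hemoglobin gene Hbb-bs (1.69 ± 0.40) were higher in other cells than in ganglion cells. The mitochondrial protein gene Mgarp averaged 14.4 ± 4.2 at P17 and 6.76 ± 4.59 at P14, and the lipid carrier Apoe, a Müller glia gene, 3.48 ± 2.17 at P17 and 0.930 ± 0.841 at P14. Clu, a chaperone also made by Müller glia, averaged 3.80 ± 0.717 at P17 and 1.62 ± 0.668 at P14, with all 4 libraries at P17 above those at P14. The tubulin Tuba1b averaged 10.6 ± 2.49 at P17 and 4.99 ± 1.53 at P14. The autophagy gene Becn1 averaged 2.41 ± 0.650 at P17 and 0.805 ± 0.42 at P14, and the centrin Cetn2 1.84 ± 0.796 at P17 and 0.402 ± 0.332 at P14, both with all 4 libraries at P17 above those at P14. C1d averaged 0.813 ± 0.473 at P17 and 2.37 ± 0.712 at P14, with all 4 libraries at P17 below. How many of all tested genes separate the ages in this way was not counted. Tspan9, Podxl2, Gorasp2 and Gm4792 complete the set.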

How the data were processed

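Drop-seq libraries of mouse retina were analysed, 12 in 8 groups. The authors deposited natural log values of 21408 genes, made by scaling each cell to 10000 UMIs, adding 1 and taking the natural log (ln), as the deposited values themselves show. Undoing the log gave whole UMIs for 100% of the entries above 0 (tolerance 0.05). The submitters' processing notes name bcl2fastq, STAR 2.4.0 and the builds mm10 and GRCm38. Sources used here do not name the annotation or say how reads shared by genes were counted. Column names were matched with the labels; 5799 columns (7 sets) fitted no library and were left aside. Positions come from GENCODE M21.

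The cells, gene lists and named genes were chosen with earlier results of these data known. For each library with at least 10 ganglion cells, the mean value per gene was tested as log2(value + 0.5) with limma 3.58.1 (moderated, with a trend) in R 4.3.3, for genes with a mean of at least 0.5 per 10000 and above 0 in at least 4 libraries; p-values are two-sided and Benjamini-Hochberg adjusted over 4592 genes. The test was checked on simulated data. Shares were compared by exact permutation within strata. Doublets were called with Scrublet in Scanpy 1.11.5 and kept. Named genes are the rule genes, genes past an adjusted p of 0.05 or among the 20 smallest p, the 4 most abundant members of a list and the 20 leading genes. Rbpms2, Ebf1, Irx4, Isl1, Kif5a, Kif5c, Bnip3, Hsp90b1, Ldhb and Nefl by age, the genes named as too low to test and the type markers shown were picked after their values were seen. Alternatives included other pseudocounts, filters, scalings, cell minimums and rules, a replicate block and leaving out each library.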

Additional observations from a re-analysis of the deposited data

How the results depend on the processing

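The limits are the number of ganglion cells (11 to 56 per library used), 3 NORM libraries against 8 OIR libraries and, at P17, 1 NORM library. OIR minus NORM called 0 genes throughout except 1 with libraries of at least 20 ganglion cells (Tpm1, adjusted p = 0.0457 by limma) and 2 in whole retina only (Hspa8 and Rgs5), where the whole-retina P14 library is the only NORM library; leaving out 1 library gave 0 to 0. P17 minus P14, with 2 genes, gave 1 with a pseudocount of 0.2, a mean of at least 2 per 10000, summed UMIs, median-of-ratios scaling or thinning to 500 UMIs, 0 without a filter, 20 in cells without amacrine genes, 56 with library weights and 57 with at least 20 ganglion cells, and 0 to 8 when 1 library was left out: 0 without P17 OIR whole-retina replicate 2, 8 without P14 OIR whole-retina replicate 1, and 4 without either rod-depleted NORM library. OIR minus NORM at P14, with 0 genes, gave 1 without a filter, with at least 20 ganglion cells or with library weights, and 0 to 2 when 1 library was left out (2 without the rod-depleted NORM library). At P17 the main fit called 0 genes, and 5 of 13 other settings called some. Among these were 4 genes with a pseudocount of 1, 133 without a filter, 86 with library weights and 3 after thinning. When 1 library was left out, the count at P17 was 0 to 0. The difference between the ages in oxygen effect gave 62 without a filter and 40 with library weights, and 0 to 2 when 1 library was left out. The comparison with amacrine cells gave 2 with at least 20 ganglion cells, and 0 to 0 when 1 library was left out. The cause of these shifts was not tested.

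The share difference between OIR and NORM, taken within age and fraction, was -0.146 percentage points without the P17 OIR rod-depleted library and likewise without its NORM partner. That between rod-depleted and whole retina, taken within age and oxygen group, was -0.0742 without the same OIR library. Leaving out 1 library gave -0.146 to 0.359 for the first and -0.0742 to 0.431 for the second. Alternatives gave 1014 values for 40 results, each a named gene in OIR minus NORM or P17 minus P14, with Podxl2 in both. Of these values, 945 kept their direction and side of the threshold, 17 no longer passed, 47 newly passed and 5 reversed. Hspa8 reversed to -0.11 with at least 20 ganglion cells, -0.0928 in cells without amacrine genes and -0.25 without the P14 NORM whole-retina library. Leaving out each library in turn gave -0.25 to 1.82 for Hspa8. Rps3a1 reversed to -0.95 with at least 20 ganglion cells and -1.54 in cells without amacrine genes. The P17 values could not be fitted with at least 20 ganglion cells, in cells without amacrine genes or without the P17 NORM rod-depleted library. Deviations of same-numbered libraries from their group means had correlations of -0.0375 to 0.0542. Only OIR groups entered, as NORM has 1 library per group, and in groups of 2 libraries the deviations mirror each other. These values therefore cannot decide whether a shared number means shared animals or handling. With the replicate number as a block, 0 genes were called in OIR minus NORM and 2 in P17 minus P14. A minimum of 5 ganglion cells per library left the same libraries as 10. Removing the 8 cells with vessel RNA was chosen after seeing the data.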

Other observations

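Ganglion cells expressed 19 of the listed receptor genes for glutamate, GABA and glycine at 0.5 UMIs per 10000 or more, and all 29 listed had a summed level of 37.8, against 44.9 in amacrine cells and 19.0 in other cells. The AMPA receptor subunit Gria2 averaged 8.47 ± 1.82 in OIR and 6.49 ± 2.0 in NORM ganglion cells (SD, n = 8 and 3). Grin1, the subunit that every NMDA receptor needs, had 0.470, 2.08 and 2.93 (lowest, median and highest) in OIR libraries, and 3.46 and 4.03 in the P14 NORM libraries (rod-depleted, then whole) and 3.67 in the P17 NORM rod-depleted library. All 8 OIR libraries lay below the NORM libraries, but the share of all tested genes with such separation was not counted. The difference of -0.76 ± 0.38 did not pass over all genes (adjusted p = 0.955 by limma). Of 18 expressed potassium and calcium channel genes 8 were higher than in other cells in every library, a share not set against that of all genes. Among the 8 was Kcnip4, a potassium channel partner, with 3.18 in ganglion cells and 0.322 in amacrine cells.

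The chemokine genes Cxcl1 and Ccl2 were at 9.01 and 5.31 UMIs per 10000 in ganglion cells of P14 OIR rod-depleted replicate 1, and at no more than 0.0904 in the other 10 libraries. That library has 12 such cells, 2 of which carried at least 4 pericyte markers. Which of the 12 cells held the chemokine RNA was not tested. Lens crystallin RNA, with at least 4 of 10 markers, occurred in 10 ganglion cells, 8 from whole-retina OIR replicate 2 and 2 from replicate 3 at P14.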
